A study of Rattus norvegicus with 15 samples.

Results

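A strong glial injury reaction was seen in 3 of the 10 libraries from fear-conditioned rats, in a set of 15 RNA-seq libraries of dorsal CA1, the output field of the dorsal hippocampus. The 3 libraries are replicates 10 and 15 of the scrambled siRNA group and replicate 18 of the group labelled Rnf20 siRNA. They were chosen by their reactive glia levels in these counts, headed by Spp1, Hmox1, Lgals3 and Timp1, so every difference between them and the other 7 trained libraries is a description of the samples and carries no p-value. All animals were male wild-type Sprague-Dawley rats of 8 to 9 weeks. Each had an siRNA injected stereotaxically into dorsal CA1. Of the trained rats, 5 libraries carry the label Rnf20 siRNA (replicates 4, 8, 14, 18 and 20) and 5 the label scrambled siRNA (5, 6, 10, 15 and 16), with injection 5 days before contextual fear conditioning, in which a rat learns to link a place with a shock. The remaining 5 libraries (1, 2, 9, 11 and 12) are naive: scrambled siRNA and no conditioning. Every group therefore shares the injection of an siRNA, and no uninjected tissue was compared. The labels give the tissue as holding all brain cell types and do not state that each library is one animal.

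Brain injury draws responses from several cell types. Microglia and incoming macrophages become phagocytic, take up debris and express secreted and lysosomal proteins such as osteopontin (Spp1) and galectin-3 (Lgals3). Astrocytes become reactive, enlarging their intermediate filament network and releasing cytokines, protease inhibitors and matrix. Bleeding releases heme, which heme oxygenase (Hmox1) breaks down into iron, carbon monoxide and biliverdin.

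Library totals were 16084972 counts in scrambled 10, 20644425 in scrambled 15 and 15707753 in Rnf20-labelled 18, 12537250 to 18458527 in the other 7 trained libraries and 14249375 to 17046535 in the naive libraries. Genes with at least 1 count numbered 18423 to 18491 in the 3 libraries, 17424 to 18233 in the other 7 and 17772 to 18239 in the naive ones. Mitochondrial transcripts took 11.7%, 8.47% and 12.3% of the counts in the 3 libraries and 9.75 to 13.3% in the other 7. The targeted gene did not separate the siRNA labels: Rnf20, a ubiquitin ligase for histone H2B, measured 44.6, 42.5, 42.8, 38.3 and 41.9 counts scaled to library size (CPM) in Rnf20-labelled libraries 4, 8, 14, 18 and 20, against 46.6, 48.5, 36.4, 46.2 and 38.5 CPM in scrambled trained libraries 5, 6, 10, 15 and 16. The log2 fold change of the label was -0.041 with a standard error (SE) of 0.0824 (adjusted p = 0.945, edgeR quasi-likelihood test with Benjamini-Hochberg adjustment). No difference in Rnf20 RNA between the labels was detectable, and the group is called Rnf20-labelled throughout.

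Of 22314 genes in the table, 14880 had enough counts to be analysed. A gene is called separated when its CPM in all 3 strong-reaction libraries lay above, or in all 3 below, every one of the other 7 trained libraries. Differences are mean log2 CPM in the strong-reaction libraries minus the mean in the other 7, so 1 means a doubling. By this count 1588 genes (10.7%) were separated higher and 1147 (7.71%) separated lower, while the median difference over all analysed genes was 0.0068. With a difference of at least 1, 530 genes (3.56%) were higher and 17 (0.114%) lower. These shares are set by the choice of the libraries and are the background for the counts of each gene group. Counts of separated genes grew when a library was taken out: without scrambled 15, 2676 genes were separated higher and 1869 lower, and without scrambled 16, 1882 were separated lower. The genes lower by at least 1 numbered 57 without scrambled 15, 27 without scrambled 10, 28 without Rnf20-labelled 18 and 27 without Rnf20-labelled 14. CPM in the strong-reaction libraries are given in the order scrambled 10, scrambled 15, Rnf20-labelled 18.

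The 4 defining genes are drawn from 3 parts of the reaction. Spp1 encodes osteopontin and Lgals3 galectin-3, both made by phagocytes at lesions, Hmox1 encodes heme oxygenase 1, and Timp1 a secreted inhibitor of matrix metalloproteinases that reactive astrocytes release. The promoter sequences of Spp1 and Timp1, 250 bases up to the transcript start from RefSeq (GRCr8, chr14:5619805-5620054 and chrX:3771123-3771372, both on the minus strand), are shown because these genes are among those that chose the libraries. They were searched on both strands for TGANTCA, the element of AP-1 factors such as Fos and Jun, and TGACNNNGC, the antioxidant response element bound by Nrf2, which switches on heme oxygenase. Capitals mark a match:
Spp1: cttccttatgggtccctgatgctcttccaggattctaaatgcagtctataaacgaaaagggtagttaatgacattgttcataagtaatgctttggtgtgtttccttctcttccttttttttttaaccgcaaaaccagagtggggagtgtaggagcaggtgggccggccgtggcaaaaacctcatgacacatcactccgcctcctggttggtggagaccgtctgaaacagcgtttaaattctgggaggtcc
Timp1: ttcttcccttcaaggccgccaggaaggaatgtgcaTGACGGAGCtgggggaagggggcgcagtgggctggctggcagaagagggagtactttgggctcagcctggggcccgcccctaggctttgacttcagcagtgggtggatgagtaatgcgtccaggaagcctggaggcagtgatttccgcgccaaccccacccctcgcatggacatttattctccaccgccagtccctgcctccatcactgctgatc
The Timp1 window held 1 match to TGACNNNGC, 215 bases before the start, and no match to TGANTCA, and the Spp1 window held neither. Of 27457 rat promoter windows of this length in the table, 10.2% held TGACNNNGC and 6.36% held TGANTCA.

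Spp1 measured 725, 830.0 and 895 CPM in the strong-reaction libraries, 6.00 to 279.8 CPM (median 115) in the other 7 and 56.6, 59.9, 26.8, 38.5 and 39.6 CPM in naive libraries 1, 2, 9, 11 and 12. Hmox1 measured 798, 1066 and 749.8 CPM, against 8.25 to 425 CPM (median 65.2) in the other 7 and 39.9, 46.1, 56.1, 62.3 and 24.6 CPM in the naive libraries. Lgals3 stood at 178, 187 and 157 CPM, against 4.75 to 83.8 CPM (median 29.5) in the other 7 and 19.3, 18.8, 23.0, 18.4 and 13.5 CPM in the naive libraries. All of these lie far above the naive range in the strong-reaction libraries, and the other 7 reach from below the naive range to several times above it. The weakest of the 4 in this respect was Timp1, at 58.4, 55.5 and 41.4 CPM against 3.25 to 40.6 CPM (median 14.8) in the other 7 and 5.89, 6.38, 5.82, 8.85 and 4.13 CPM in the naive libraries. The differences were 3.59 for Spp1, 3.86 for Hmox1, 2.86 for Lgals3 and 2.06 for Timp1 on the log2 scale.

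The border of the set was not a wide gap for every gene. Timp1 was 41.4 CPM in Rnf20-labelled 18, the lowest library inside, and 40.6 in scrambled 16, the highest outside. The corresponding values for Hmox1 were 749.8 CPM in Rnf20-labelled 18 and 425 in scrambled 16, for Lgals3 157 CPM in Rnf20-labelled 18 and 83.8 in scrambled 16, and for Spp1 725 CPM in scrambled 10 and 279.8 in scrambled 6. The 4 genes did not rank the other 7 alike: scrambled 6, highest for Spp1, held 28.1 CPM of Hmox1, inside the naive range, and scrambled 16, highest for the other 3 genes, held 95.1 CPM of Spp1. A pair of libraries stood at the opposite end, with Spp1 at 9.08 CPM in Rnf20-labelled 4 and 6.00 in Rnf20-labelled 14, both under the lowest naive value of 26.8.

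**Figure D1:**
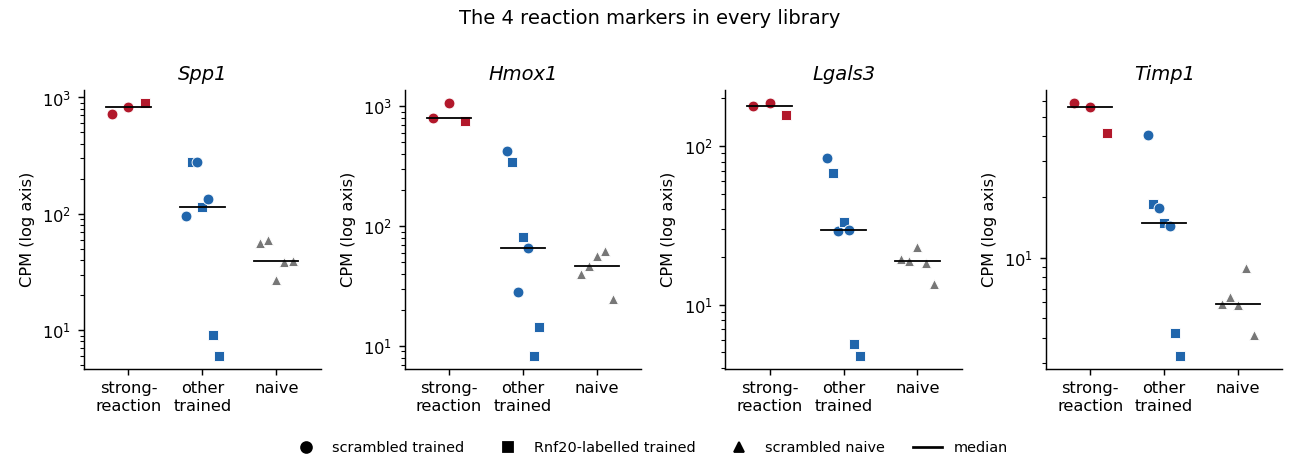
Read counts scaled to library size (CPM) on a log axis for the 4 genes that define the reaction, one dot per library, with a bar at the median of each set. The 3 strong-reaction libraries lie above the other 7 trained libraries for every gene, by a narrow margin for Timp1 (41.4 against 40.6 CPM), and the other 7 spread both above and below the 5 naive libraries.

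The 530 genes that were separated and higher by at least 1 were selected with the 3 libraries above the other 7. The top place of the 3 among trained libraries is therefore fixed. The order within the other 7 is not fixed, but it is not independent of the choice either. That choice ranked all trained libraries by reactive glia levels, and the 530 genes follow the same contrast. Relative to the naive mean, the median log2 level of the 530 genes was 1.28 in scrambled 10, 1.38 in scrambled 15 and 1.29 in Rnf20-labelled 18. Next came scrambled 16 at 0.65 and Rnf20-labelled 8 at 0.43. Scrambled 6 was at 0.21, Rnf20-labelled 20 at -0.021 and scrambled 5 at -0.22, all within the naive range of -0.25 to 0.23. Rnf20-labelled 4 and 14 lay under it, at -0.50 and -0.87. Of the 530 genes, 422 (79.6%) were above every naive library in all 3 strong-reaction libraries, and for 374 (70.6%) the median of the other 7 fell inside the naive range. High levels in the 3 were a condition of the selection, which also favours a place above the naive libraries. The 422 are therefore a description and no separate support. In 364 genes (68.7%) scrambled 16 or Rnf20-labelled 8 was the highest of the other 7, and in 265 (50%) Rnf20-labelled 4 and 14 were both below every naive library.

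The highest trained library varied: scrambled 15 was the highest trained library for 205 of the 530, scrambled 10 for 197 and Rnf20-labelled 18 for 128. The 1147 genes separated lower, selected with the 3 libraries below the other 7, differed less. Their median relative to naive was -0.41 in scrambled 10, -0.30 in scrambled 15 and -0.37 in Rnf20-labelled 18, against -0.061 to 0.13 in the other 7. In 834 of them (72.7%) all 3 strong-reaction libraries were below every naive library, a place that the selection of low levels in the 3 also favours. With 530 genes higher by at least 1 and 17 lower, the difference was one-sided in size, and both directions were present in number.

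**Figure D2:**
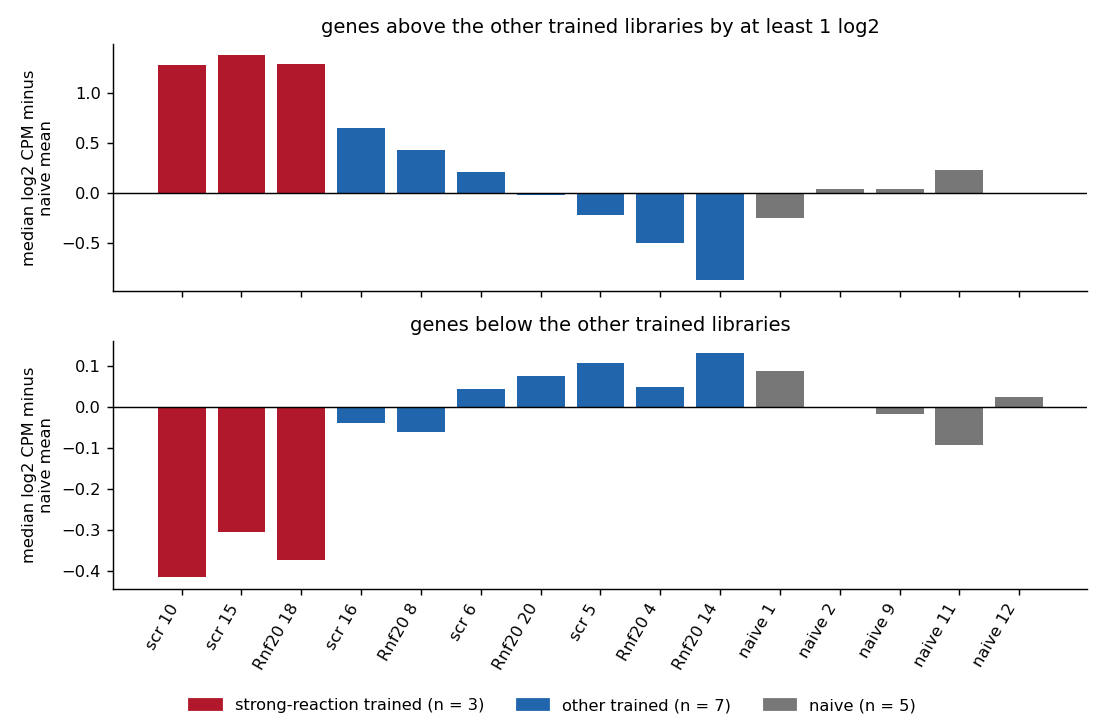
Median log2 CPM of 2 gene sets in each library, relative to the mean of the 5 naive libraries, with one bar per library. The 530 higher genes put the 3 strong-reaction libraries at 1.28 to 1.38, with scrambled 16 (0.65) and Rnf20-labelled 8 (0.43) next and Rnf20-labelled 4 (-0.50) and 14 (-0.87) lowest; the 1147 lower genes stand at -0.41 to -0.30 in the 3 and close to 0 elsewhere.

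Besides Spp1 and Hmox1, the largest differences among genes of at least 5 CPM on average included those of a metabolic enzyme and of chemotactic and scavenging proteins. Akr1b8, an aldo-keto reductase, measured 51.9, 184 and 98.0 CPM in the strong-reaction libraries, 0.886 to 50.6 CPM (median 2.88) in the other 7 and 1.64 to 7.59 CPM in the naive libraries, a difference of 4.26. Ccl2, a chemokine that attracts monocytes, stood at 16.0, 34.4 and 12.0 CPM in the strong-reaction libraries, at 0.443 to 10.5 CPM (median 2.82) in the other 7 and at 0.570 to 4.79 CPM in the naive libraries, differing by 3.01. For both, the strong-reaction libraries were above the naive maximum, though Akr1b8 in scrambled 10 (51.9 CPM) only just passed the highest of the other 7, scrambled 16 (50.6 CPM).

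Myeloid genes made up much of the rest. Ccl6, a chemokine made by myeloid cells, measured 19.1, 26.9 and 33 CPM in the strong-reaction libraries, 0.333 to 12.8 CPM (median 2.76) in the other 7 and 0.855 to 3.01 CPM in the naive libraries, a difference of 3.04. Levels of Lilrb4, an inhibitory receptor of myeloid cells, were 21.7, 14.3 and 13.3 CPM in the strong-reaction libraries against 0 to 10.0 CPM (median 4.17) in the other 7, a difference of 3.20, and 0.428 to 2.85 CPM in the naive libraries. Msr1, a scavenger receptor of macrophages, stood at 28.5, 24.2 and 20.4 CPM in the strong-reaction libraries, at 0.720 to 7.44 CPM (median 4.12) in the other 7 and at 0.397 to 3.92 CPM in the naive libraries, differing by 2.89. All were above every naive library in the 3 strong-reaction libraries. The largest difference of all was that of Glycam1, a mucin-like ligand of L-selectin, at 56.3, 5.57 and 23.4 CPM in the strong-reaction libraries, 0 to 1.55 CPM (median 0.142) in the other 7 and 0.753 to 7.06 CPM in the naive libraries. Scrambled 15 was inside the naive range for it, so the separation of Glycam1 rested on its low level in the other 7.

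Genes of injury-responsive phagocytes formed one of the groups with the largest shift. The group includes Spp1 and Lgals3, and the libraries were chosen by reactive glia levels. A shift of this group and of the reactive astrocyte genes was thus fixed in part by the choice. Of 26 genes, all 26 were analysed and 19 were separated higher, 0 lower, with a median difference of 1.47 against 0.0068 over all genes; 25 lay above 0. The mean log2 CPM of the group was 6.22, 6.61 and 6.31 in the strong-reaction libraries, 3.62 to 5.64 in the other 7 and 4.57 to 4.91 in the naive libraries. Gpnmb, a lysosomal glycoprotein gene, differed by 2.70, the integrin gene Itgax by 2.49 and Clec7a, a receptor for fungal sugars that microglia also use, by 2.55. Apoe, which carries lipid and is made mostly by astrocytes, differed by 0.0055 and Lpl, a lipoprotein lipase, by -0.086, neither separated. These 5 were named after their values were seen.

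Lysosomal genes had the same direction as the phagocyte genes: 11 of 18 analysed lysosomal genes were separated higher and 0 lower, with a median of 0.67. Lgmn, an asparagine-specific endopeptidase, stood at 351, 442 and 359 CPM in the strong-reaction libraries, at 95.4 to 263 CPM (median 166) in the other 7 and at 132 to 186 CPM in the naive libraries, differing by 1.21. Grn, the lysosomal growth factor progranulin, measured 235, 353 and 241 CPM in the strong-reaction libraries, 70.5 to 194 CPM (median 134) in the other 7 and 106 to 158 CPM in the naive libraries, a difference of 1.09. In both genes the lowest strong-reaction library was above the highest of the other 7 and of the naive libraries. Levels of Laptm5, a lysosomal membrane protein of blood-derived cells and microglia, were 110.2, 165 and 137 CPM in the strong-reaction libraries against 39.4 to 99.97 CPM (median 60.9) in the other 7, a difference of 1.11, and 46.5 to 77.8 CPM in the naive libraries.

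Genes of resting microglia differed less than the phagocyte genes. Of 14 analysed, 4 (Gpr34, Aif1, Slc2a5 and Trem2) were separated higher and 0 lower, with a median of 0.51. Trem2 is counted among the phagocyte genes as well. Trem2, a lipid-sensing receptor needed for the phagocytic state, measured 51.0, 66.8 and 60.7 CPM in the strong-reaction libraries, 15.0 to 42.5 CPM (median 24.5) in the other 7 and 18.1 to 33 CPM in the naive libraries, a difference of 1.27. Levels of Aif1, the calcium-binding protein Iba1, were 81.4, 85.5 and 87.9 CPM in the strong-reaction libraries against 23.1 to 69.7 CPM (median 38.1) in the other 7, a difference of 1.03, and 29.8 to 56.0 CPM in the naive libraries. Slc2a5, a fructose transporter of microglia, stood at 16.7, 19.0 and 16.9 CPM in the strong-reaction libraries, at 6.83 to 16.5 CPM (median 11.1) in the other 7 and at 9.09 to 12.8 CPM in the naive libraries, differing by 0.62. In all, 13 of the 14 lay above 0. Of markers most tied to the resting state, 3, named after their values were seen, were not separated and differed as follows: the purine receptor P2ry12 by 0.31, Tmem119 by -0.064 and the transcription factor Sall1 by 0.34. In tissue of mixed cells a larger number of cells of one type and more RNA per cell cannot be told apart, here or in any group that follows.

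Genes of leukocytes and of the macrophages at brain borders were higher as well: 8 of 15 analysed, of 25 listed, were separated higher and 0 lower, with a median of 1.44. Levels of Lyz2, a lysozyme of macrophages and neutrophils, were 368, 465 and 298 CPM in the strong-reaction libraries against 29.4 to 174 CPM (median 111) in the other 7, a difference of 2.12, and 61.1 to 97.1 CPM in the naive libraries. Mrc1, the mannose receptor of border macrophages, measured 16.5, 22.7 and 16.6 CPM in the strong-reaction libraries, 2.77 to 10.9 CPM (median 4.47) in the other 7 and 3.04 to 5.96 CPM in the naive libraries, a difference of 1.90. Pf4, a chemokine of platelets that border macrophages also express, stood at 8.33, 10.9 and 9.77 CPM in the strong-reaction libraries, at 0.332 to 5.85 CPM (median 1.84) in the other 7 and at 0.788 to 2.38 CPM in the naive libraries, differing by 2.35. The mean log2 CPM of the list was 3.18, 3.20 and 3.12 in the strong-reaction libraries, 0.90 to 2.71 in the other 7 and 1.16 to 2.23 in the naive libraries.

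Red blood cell genes lay above every naive library in the 3 libraries but were not separated from the other 7. Of 6 analysed genes of 9 listed, 0 were separated and all 6 differed by more than 0. Their median difference was 1.07, and 1.47 without scrambled 6. The mean log2 CPM was 5.30, 5.12 and 4.85 in the strong-reaction libraries, 2.91 to 6.34 in the other 7 and 2.73 to 3.26 in the naive libraries. The highest was scrambled 6, whose phagocyte mean of 4.93 was close to the naive ones. Hbb, a beta globin, measured 357, 273 and 229 CPM in the strong-reaction libraries, 62.0 to 514 CPM (median 96.5) in the other 7 and 49.9 to 92.2 CPM in the naive libraries. All 3 strong-reaction libraries exceeded every naive library, and scrambled 6 exceeded them at 514 CPM. Globin genes have near-identical copies between which reads may be split, so single values are uncertain, and the part of blood in the reaction genes was not tested.

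Reactive astrocyte genes were higher throughout: all 29 analysed genes of 32 listed lay above 0, 13 were separated higher and 0 lower, and the median was 1.37. Hspb1, a small heat shock protein that reactive astrocytes express, stood at 112, 108 and 111 CPM in the strong-reaction libraries, at 8.36 to 53.9 CPM (median 28.3) in the other 7 and at 8.20 to 19.0 CPM in the naive libraries, differing by 2.31. Cd14, a co-receptor for bacterial lipopolysaccharide, also of myeloid cells, measured 15.1, 27.1 and 18.3 CPM in the strong-reaction libraries, 1.000 to 12.1 CPM (median 3.61) in the other 7 and 2.12 to 4.85 CPM in the naive libraries, a difference of 2.39. Hspb1 and Cd14 were above every naive library in all 3. As mean log2 CPM, the list stood at 4.45, 4.80 and 4.50 in the strong-reaction libraries, 2.497 to 4.29 in the other 7, with scrambled 16 highest, and 3.07 to 3.48 in the naive libraries. The intermediate filament genes Vim and Gfap, named after their values were seen, were separated with differences of 1.83 and 0.79. Gfap measured 6348, 6600.0 and 5792 CPM, against 2209.8 to 5564 CPM (median 3817) in the other 7 and 2798 to 4167 CPM in the naive libraries. Lcn2, a secreted iron-siderophore carrier, differed by 1.87 without separation, and the complement gene C3 by 0.53.

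Homeostatic astrocyte genes ran the other way. Of 21 analysed, 5 were separated lower, among them Gjb6 and Acsl6, and 0 higher, with a median of -0.32. Gjb6, the gap junction protein connexin 30, measured 20.4, 19.6 and 27.4 CPM in the strong-reaction libraries, 29.4 to 41.7 CPM (median 39.6) in the other 7 and 27.4 to 35.4 CPM in the naive libraries, a difference of -0.73. Acsl6, a long-chain acyl-CoA synthetase, stood at 207, 208 and 234 CPM in the strong-reaction libraries, at 267 to 332 CPM (median 305) in the other 7 and at 285 to 324 CPM in the naive libraries, differing by -0.48. The glutamate transporters Slc1a2 and Slc1a3 differed by -0.45 and -0.38, the water channel Aqp4 by -0.10 and glutamine synthetase (Glul) by 0.069, none of them separated.

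**Figure D3:**
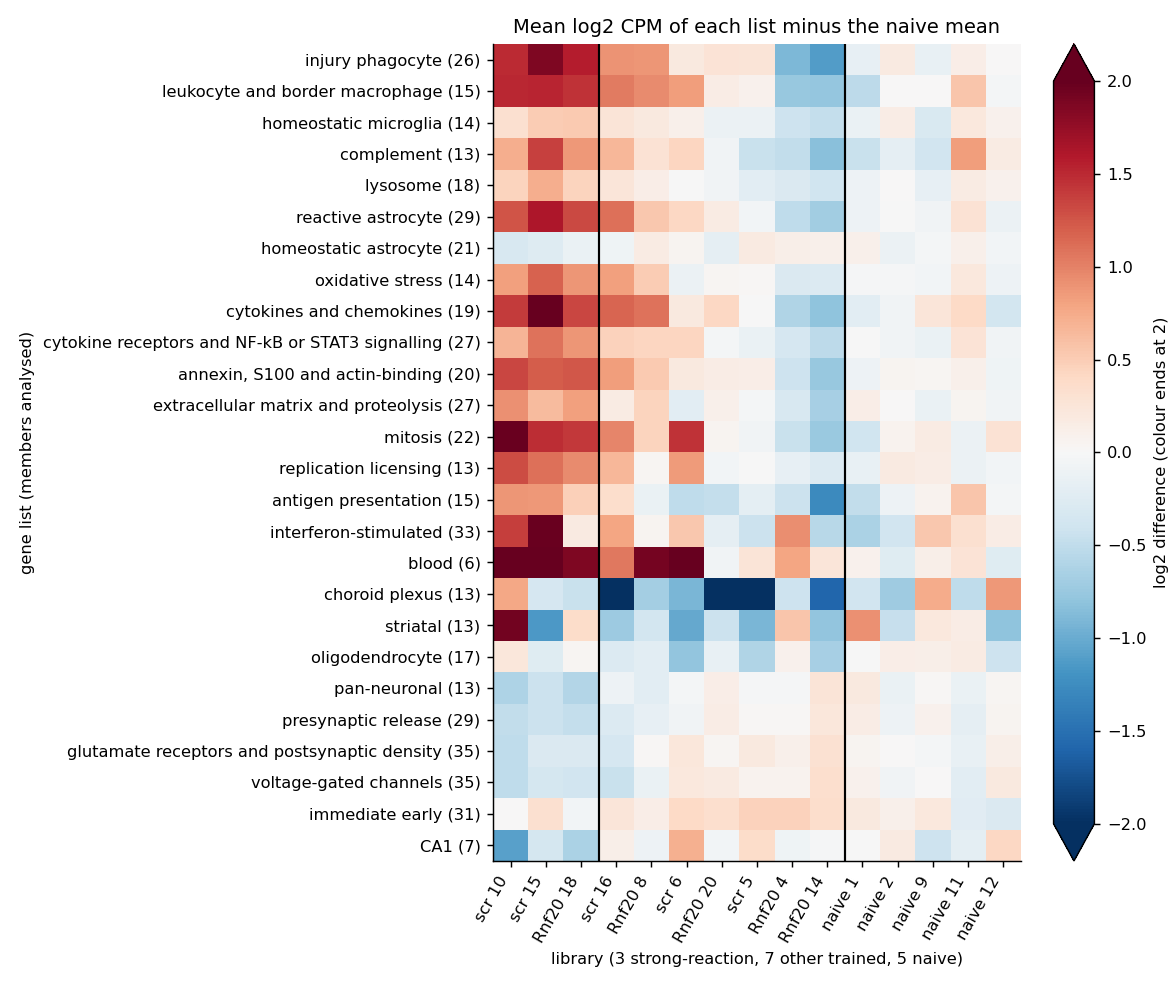
Mean log2 CPM of 26 gene groups (rows) in each of the 15 libraries (columns), relative to the mean of the naive libraries; colour gives the log2 difference. Phagocyte, reactive astrocyte and leukocyte groups are high in the 3 strong-reaction columns and low in Rnf20-labelled 4 and 14, while choroid plexus genes are low in scrambled 5, scrambled 16 and Rnf20-labelled 20 and striatal genes are high in scrambled 10.

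Oxidative stress genes, taken as targets of the factor Nrf2 and metallothioneins, had 7 of 14 analysed separated higher and 0 lower, with a median of 0.43 that was well under the difference of Hmox1 itself. Osgin1, an oxidative stress-induced growth inhibitor, measured 4.87, 9.04 and 4.80 CPM in the strong-reaction libraries, 0.458 to 3.68 CPM (median 1.16) in the other 7 and 1.19 to 1.58 CPM in the naive libraries, a difference of 2.12. Heme and iron genes had 2 of 12 separated higher, Hmox1 and Slc11a1, with a median of 0.34. Hmox1 is among the genes that chose the libraries, which leaves Slc11a1, beside a share of 10.7% separated higher over all genes. Slc11a1, an iron and manganese exporter of the phagosome, stood at 54.0, 75.8 and 70.1 CPM in the strong-reaction libraries, at 4.87 to 44.4 CPM (median 10.4) in the other 7 and at 6.06 to 11.1 CPM in the naive libraries, differing by 2.31.

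Among cytokines and chemokines, 9 of 19 analysed genes (25 listed) were separated higher and 1 lower, with a median of 1.39. Levels of Ccl7, a monocyte-attracting chemokine, were 6.28, 17.6 and 6.02 CPM in the strong-reaction libraries against 0.277 to 5.26 CPM (median 1.11) in the other 7, a difference of 2.73, and 0.198 to 1.52 CPM in the naive libraries. Lif, a cytokine that signals through gp130 and STAT3, differed by 1.94 and Osm, its relative oncostatin M, by 1.42, both separated and both named after their values were seen. The one separated lower was Cx3cl1, the neuronal ligand of the microglial receptor Cx3cr1, at 318, 327 and 266 CPM, against 390.3 to 497 CPM (median 454) in the other 7 and 376 to 461 CPM in the naive libraries. Il1b and Il1a, the interleukin-1 genes, differed by 0.73 and 0.65 without separation.

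Receptors and signalling genes of the NF-kB and STAT3 pathways had 13 of 27 separated higher and 0 lower, with a median of 0.81. Socs3, a feedback inhibitor induced by STAT3, measured 8.10, 10.7 and 9.28 CPM in the strong-reaction libraries, 0.333 to 5.35 CPM (median 1.77) in the other 7 and 1.07 to 1.76 CPM in the naive libraries, a difference of 2.48. Bcl3, a nuclear co-factor of NF-kB, stood at 6.10, 7.22 and 9.53 CPM in the strong-reaction libraries, at 0.583 to 4.64 CPM (median 1.49) in the other 7 and at 1.43 to 3.57 CPM in the naive libraries, differing by 2.00. Levels of Tnfrsf12a, the receptor of the cytokine TWEAK, were 9.15, 7.03 and 9.65 CPM in the strong-reaction libraries against 1.84 to 4.52 CPM (median 3.37) in the other 7, a difference of 1.44, and 1.57 to 3.04 CPM in the naive libraries. In all 3 genes the strong-reaction libraries lay above the highest naive library.

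Complement genes had 6 of 13 analysed separated higher and 0 lower, with a median of 1.11. C3ar1, the receptor for the C3a fragment, measured 15.1, 21.6 and 18.4 CPM in the strong-reaction libraries, 2.94 to 10.0 CPM (median 7.43) in the other 7 and 3.58 to 11.0 CPM in the naive libraries, a difference of 1.55. Levels of C5ar1, the receptor for C5a, were 9.62, 16.9 and 11.9 CPM in the strong-reaction libraries against 2.08 to 9.04 CPM (median 3.98) in the other 7, a difference of 1.55, and 2.75 to 4.77 CPM in the naive libraries. C2, a protease of the classical pathway, stood at 12.0, 17.2 and 9.96 CPM in the strong-reaction libraries, at 2.67 to 6.54 CPM (median 4.98) in the other 7 and at 4.16 to 13.9 CPM in the naive libraries, differing by 1.45. C2 overlapped the naive range, whose highest library reached 13.9 CPM. The 3 chains of C1q, made by microglia, differed by 1.03 (C1qa), 1.15 (C1qb) and 1.39 (C1qc), with C1qc not separated.

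Antigen presentation genes had 6 of 15 analysed separated higher and 0 lower, with a median of 1.08. Levels of RT1-Bb, a class II beta chain of the rat major histocompatibility complex, were 19.9, 23.3 and 12.8 CPM in the strong-reaction libraries against 1.76 to 6.74 CPM (median 4.15) in the other 7, a difference of 2.35, and 2.78 to 14.5 CPM in the naive libraries. RT1-Ba, its alpha chain partner, measured 21.8, 22.5 and 15.4 CPM in the strong-reaction libraries, 1.96 to 9.87 CPM (median 5.07) in the other 7 and 4.50 to 20.0 CPM in the naive libraries, a difference of 2.03. Ciita, the master activator of class II genes, stood at 3.17, 3.20 and 2.21 CPM in the strong-reaction libraries, at 0.327 to 1.47 CPM (median 0.765) in the other 7 and at 0.463 to 1.44 CPM in the naive libraries, differing by 1.90. The class II chains overlapped the naive range, whose highest libraries reached 20.0 CPM for RT1-Ba and 14.5 for RT1-Bb. The RT1 genes are close relatives, so the assignment of reads among them is uncertain.

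Interferon-stimulated genes were high in both scrambled strong-reaction libraries and not in Rnf20-labelled 18. Of 33 analysed genes of 35 listed, 2 were separated higher, against 10.7% over all genes, and 0 lower, although the median was 1.01. That median was 0.64 without scrambled 15 and 1.44 without Rnf20-labelled 18. The mean log2 CPM was 4.49, 5.08 and 3.27 in the strong-reaction libraries, 2.55 to 4.03 in the other 7 and 2.46 to 3.64 in the naive libraries. Rnf20-labelled 18 therefore lay within the naive range, and Rnf20-labelled 4, which had a phagocyte mean of 3.84 and stood second lowest on it, exceeded every naive library at 4.03. Within the scrambled trained libraries the median difference was 1.31, and within the Rnf20-labelled ones 0.071.

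Among single genes, Mx1, a GTPase that blocks viruses, measured 67.4 CPM in scrambled 10, 138 in scrambled 15 and 10.5 in Rnf20-labelled 18, with 45.3 in Rnf20-labelled 4 and 47.7 in scrambled 16, 4.58 to 47.7 CPM (median 11.3) across the other 7 and 3.11 to 43.3 CPM in the naive libraries. Irf7, the factor that amplifies interferon production, measured 31.5, 49.8 and 4.98 CPM in the strong-reaction libraries and 32.5 in Rnf20-labelled 4, 4.33 to 32.5 CPM (median 6.31) across the other 7, and 3.84 to 19.4 CPM in the naive libraries. These 2 were named after their values were seen. In Rnf20-labelled 18 both lay within the naive range. The 2 separated genes, with Rnf20-labelled 18 above all of the other 7 and the naive libraries, were Trim25, a ubiquitin ligase of the RIG-I pathway, and Parp9, an ADP-ribosyltransferase family member. Trim25 stood at 14.2, 21.7 and 12.0 CPM in the strong-reaction libraries, at 2.83 to 8.95 CPM (median 7.75) in the other 7 and at 5.03 to 8.41 CPM in the naive libraries, differing by 1.24. Parp9 measured 35.2, 37.8 and 21.5 CPM in the strong-reaction libraries, 9.58 to 20.6 CPM (median 15.8) in the other 7 and 8.27 to 18.6 CPM in the naive libraries, a difference of 1.01.

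**Figure D4:**
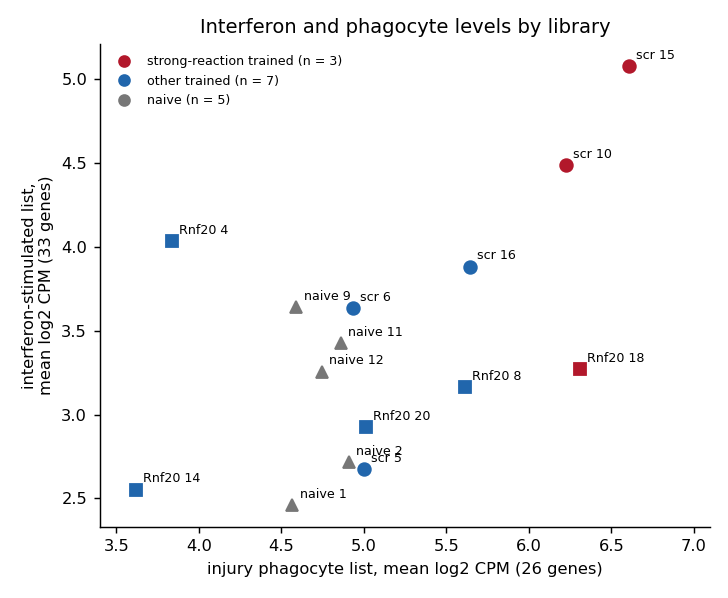
Mean log2 CPM of 33 interferon-stimulated genes (vertical axis) against that of 26 injury phagocyte genes (horizontal axis), one point per library. Scrambled 10 and 15 are high on both, Rnf20-labelled 18 is high on the phagocyte axis (6.31) with an interferon level of 3.27, and Rnf20-labelled 4 has a high interferon level (4.03) and a low phagocyte level (3.84).

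Annexins, S100 proteins and actin-binding genes, which act in membrane repair and cell movement, had 10 of 20 separated higher and 0 lower, with a median of 1.12. Levels of Anxa2, a calcium-dependent membrane-binding protein, were 109, 89.2 and 108 CPM in the strong-reaction libraries against 10.8 to 46.3 CPM (median 19.6) in the other 7, a difference of 2.30, and 13.9 to 22.9 CPM in the naive libraries. S100a6, a small calcium-binding protein, stood at 79.4, 49.2 and 68.2 CPM in the strong-reaction libraries, at 4.42 to 28.8 CPM (median 16.6) in the other 7 and at 9.66 to 17.8 CPM in the naive libraries, differing by 2.24. Anxa1, an annexin that limits inflammation, measured 67.6, 65.4 and 47.6 CPM in the strong-reaction libraries, 3.75 to 37.3 CPM (median 11.0) in the other 7 and 7.91 to 15.2 CPM in the naive libraries, a difference of 2.39. Extracellular matrix and proteolysis genes had 10 of 27 analysed separated higher and 0 lower, with a median of 0.65. Levels of Plau, the plasminogen activator urokinase, were 8.86, 22.6 and 8.12 CPM in the strong-reaction libraries against 0.50 to 5.38 CPM (median 3.82) in the other 7, a difference of 2.18, and 1.26 to 2.87 CPM in the naive libraries. Adamts1, a protease of proteoglycans, stood at 33.9, 22.7 and 27.6 CPM in the strong-reaction libraries, at 6.50 to 11.7 CPM (median 8.52) in the other 7 and at 9.08 to 12.5 CPM in the naive libraries, differing by 1.64. Both were above every naive library in the 3.

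Cell division genes were higher together. All 22 analysed mitosis genes lay above 0, 7 were separated higher and 0 lower, and the median was 1.37. Cdk1, the kinase that drives entry into mitosis, stood at 20.2, 13.7 and 10.9 CPM in the strong-reaction libraries, at 0.583 to 10.3 CPM (median 2.88) in the other 7 and at 1.92 to 4.35 CPM in the naive libraries, differing by 2.11. Rrm2, a ribonucleotide reductase subunit, measured 18.8, 13 and 11.4 CPM in the strong-reaction libraries, 1.83 to 8.76 CPM (median 2.76) in the other 7 and 2.05 to 4.77 CPM in the naive libraries, a difference of 1.85. Levels of Aurkb, a mitotic kinase, were 43.5, 28.2 and 47.9 CPM in the strong-reaction libraries against 3.49 to 15.6 CPM (median 11.9) in the other 7, a difference of 2.09, and 6.24 to 37.0 CPM in the naive libraries. Aurkb reached 37.0 CPM in a naive library, inside the range of the 3. Genes that license DNA replication had 8 of 13 separated higher and 1 (Gins2) lower, with a median of 1.10, and among them Mcm10, a replication initiation factor, was at 8.63, 5.21 and 5.16 CPM, against 0.916 to 5.10 CPM (median 1.22) in the other 7 and 0.794 to 2.24 CPM in the naive libraries. Scrambled 6 had a mitosis mean of 3.59, against 4.12, 3.62 and 3.55 in the strong-reaction libraries, without the phagocyte level of the 3.

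Stress pathways other than the oxidative one differed in part. Of 16 analysed p53 and apoptosis genes, 8 were separated higher and 0 lower, with a median of 0.62. Cdkn1a, the cell cycle inhibitor p21, measured 26, 30.3 and 22.2 CPM in the strong-reaction libraries, 7.91 to 20.7 CPM (median 11.9) in the other 7 and 12.7 to 17.4 CPM in the naive libraries, a difference of 1.09. Levels of Casp1, the protease that matures interleukin-1 beta, were 12.9, 14.3 and 10.9 CPM in the strong-reaction libraries against 3.0 to 9.99 CPM (median 5.07) in the other 7, a difference of 1.24, and 3.84 to 7.47 CPM in the naive libraries. Gadd45a, a DNA damage response gene, stood at 21.0, 21.2 and 22.4 CPM in the strong-reaction libraries, at 6.92 to 17.2 CPM (median 11.6) in the other 7 and at 11.0 to 15.9 CPM in the naive libraries, differing by 1.00. Atf3, a stress-induced transcription factor of injured neurons and glia, measured 11.3, 21.5 and 11.7 CPM, against 0.750 to 7.74 CPM (median 2.12) in the other 7 and 1.14 to 2.85 CPM in the naive libraries. The axon injury list that holds it had 4 of 14 (Atf3, Sox11, Gadd45a and Klf6) separated higher and 1 lower, with a median of 0.17 (0.29 without scrambled 15); the lower one was the neuropeptide gene Adcyap1, with a difference of -0.90.

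Unfolded protein stress genes had 4 of 13 (Creld2, Sdf2l1, Pdia4 and Manf) separated higher with a median of 0.18, which was 0.088 without scrambled 15 and 0.11 without Rnf20-labelled 14. Levels of Sdf2l1, a chaperone component of the endoplasmic reticulum, were 39.0, 41.3 and 39.9 CPM in the strong-reaction libraries against 12.7 to 26.4 CPM (median 18.3) in the other 7, a difference of 1.13, and 16.3 to 18.2 CPM in the naive libraries. Heat shock genes had 3 of 16 separated higher, Hspb1, Hspa1b and Bag3, while the median of the list was -0.044, and 0.10 without Rnf20-labelled 18. Hspa1b, an inducible Hsp70, stood at 4.64, 6.67 and 3.81 CPM in the strong-reaction libraries, at 1.04 to 2.29 CPM (median 1.49) in the other 7 and at 0.784 to 1.46 CPM in the naive libraries, differing by 1.59. Hspa1b has a near-identical copy, so its reads may be split. Glucocorticoid-responsive genes had 1 of 16 separated, Cdkn1a, with a median of -0.075, and 0.045 without scrambled 10. Of 17 cholesterol synthesis genes, 0 were separated, and the median was -0.12, and -0.00090 without scrambled 15.

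Neuronal genes were lower in the strong-reaction libraries, by a smaller and more even margin. Of 13 pan-neuronal genes, 11 were separated lower and 0 higher, with a median of -0.58. Rbfox3, the nuclear protein NeuN, measured 71.4, 91.0 and 76.9 CPM in the strong-reaction libraries, 102 to 137 CPM (median 129) in the other 7 and 99.2 to 127 CPM in the naive libraries, a difference of -0.61. Levels of Elavl4, an RNA-binding protein of neurons, were 35.5, 36.4 and 35.5 CPM in the strong-reaction libraries against 41.6 to 80.1 CPM (median 57.9) in the other 7, a difference of -0.67, and 40.4 to 78.3 CPM in the naive libraries. Nefh, the heavy neurofilament, stood at 92.1, 74.5 and 82.7 CPM in the strong-reaction libraries, at 106 to 164 CPM (median 137) in the other 7 and at 103 to 185 CPM in the naive libraries, differing by -0.72. The differences of all 13 lay between -0.72 (Nefh) and -0.35 (Stmn2).

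Synaptic groups had the same direction. Presynaptic release genes had 15 of 29 separated lower and 0 higher, with a median of -0.50; glutamate receptor and postsynaptic genes 8 of 35 and -0.47; GABA receptor genes 4 of 16 and -0.42; voltage-gated channel genes 6 of 35 and -0.45. Levels of Snap25, a component of the vesicle fusion machinery, were 1129, 1367 and 1189 CPM in the strong-reaction libraries against 1492 to 2139.8 CPM (median 1864) in the other 7, a difference of -0.60, and 1637 to 2344 CPM in the naive libraries. Gabbr2, a subunit of the metabotropic GABA-B receptor, stood at 229.6, 238 and 229.9 CPM in the strong-reaction libraries, at 253 to 413 CPM (median 333) in the other 7 and at 271 to 384 CPM in the naive libraries, differing by -0.51. Gria3, an AMPA receptor subunit, measured 132, 157 and 146 CPM in the strong-reaction libraries, 191 to 272 CPM (median 240.0) in the other 7 and 182 to 252 CPM in the naive libraries, a difference of -0.68. The potassium channel gene Kcnc1 measured 44.0, 36.8 and 46.8 CPM, against 51.2 to 81.6 CPM (median 61.4) in the other 7 and 55.6 to 78.6 CPM in the naive libraries. For these 4 genes every strong-reaction library was below every naive library. That held for 18 of 29 presynaptic, 9 of 35 glutamate, 4 of 16 GABA and 16 of 35 channel genes. In mean log2 CPM, scrambled 16 lay inside the strong-reaction range for glutamate genes, at 6.57 against 6.40 to 6.61. It did so too for GABA genes (6.11 against 5.98 to 6.14) and channel genes (6.05 against 5.99 to 6.14). For presynaptic genes scrambled 16 lay above the range, at 7.99 against 7.78 to 7.84.

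CA1 pyramidal cell markers had 3 of 7 analysed genes separated lower, with a median of -0.98, and -0.65 without scrambled 10, in which they were lowest. Mpped1, a metallophosphoesterase-domain gene of CA1, measured 96.3, 178 and 187 CPM in scrambled 10, scrambled 15 and Rnf20-labelled 18, against 253 to 389 CPM (median 281) in the other 7 and 198 to 309.5 CPM in the naive libraries. Pou3f1, a POU-domain transcription factor, stood at 14.8, 28.5 and 28.1 CPM in the strong-reaction libraries, at 29.6 to 75.4 CPM (median 44.0) in the other 7 and at 25.3 to 51.6 CPM in the naive libraries, differing by -0.98. Within the labels the differences were -1.39 in scrambled and -0.51 in Rnf20-labelled libraries for Mpped1 and -1.52 and -0.39 for Pou3f1. Ccn3, a secreted matricellular protein, measured 64.6, 115 and 66.9 CPM in the strong-reaction libraries, 126 to 235 CPM (median 140.2) in the other 7 and 94.9 to 259 CPM in the naive libraries, a difference of -0.97. Marker medians were -0.29 for CA2, -0.085 for CA3, -0.37 for dentate granule cells and -0.25 for neocortex. Leaving out 1 library moved them to -0.18 for CA2 (without Rnf20-labelled 18), 0.035 for CA3 (without Rnf20-labelled 14), -0.15 for dentate cells (without scrambled 10) and -0.16 for neocortex (without Rnf20-labelled 4). Of these, 1 of 4 CA2 genes (Amigo2) and 1 of 7 neocortical genes (Fezf2) were separated lower, and 0 of 7 CA3 and 0 of 6 dentate genes.

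Interneuron genes had 3 of 13 separated lower, with a median of -0.51. Levels of Pvalb, the calcium buffer parvalbumin of fast-spiking cells, were 30.4, 34.9 and 32.8 CPM in the strong-reaction libraries against 38.0 to 66.1 CPM (median 49.5) in the other 7, a difference of -0.59, and 38.8 to 61.5 CPM in the naive libraries. Cck, the neuropeptide cholecystokinin, stood at 93.1, 94.6 and 72.7 CPM in the strong-reaction libraries, at 100.1 to 218 CPM (median 141) in the other 7 and at 113 to 169 CPM in the naive libraries, differing by -0.69. Vip, the vasoactive intestinal peptide, measured 7.75, 11.1 and 8.36 CPM in the strong-reaction libraries, 11.7 to 26.2 CPM (median 17.1) in the other 7 and 11.7 to 15.3 CPM in the naive libraries, a difference of -0.89. The largest decrements of all genes above 5 CPM on average included Cadps2, which primes dense-core vesicles for release, at 22.4, 37.4 and 27.7 CPM in the strong-reaction libraries, 49.1 to 83.1 CPM (median 65.5) in the other 7 and 56.1 to 81.0 CPM in the naive libraries. Cdh12, a cadherin, and Rspo3, an enhancer of Wnt signalling, differed by -1.09 and -1.03, and Slc13a5, a citrate transporter, by -0.98.

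Immediate early genes, which neurons switch on with activity, were mostly not separated. Of 31, 2 were separated higher and 1 lower, while 23 lay below 0 and 8 above it. The median was -0.39, which was -0.24 without Rnf20-labelled 18. Arc, a regulator of synaptic receptor trafficking, measured 85.6, 115 and 70.4 CPM in the strong-reaction libraries, 124 to 229 CPM (median 172) in the other 7 and 111, 96.1, 184, 82.0 and 43.8 CPM in naive libraries 1, 2, 9, 11 and 12. The strong-reaction libraries were inside the naive range for Arc. Levels of Fos, an AP-1 transcription factor, were 20.0, 23.2 and 18.5 CPM in the strong-reaction libraries against 10.4 to 18.2 CPM (median 15.3) in the other 7, a difference of 0.54, and 3.42 to 15.7 CPM in the naive libraries. Gadd45g, a stress and activity response gene, measured 16.2, 16.6 and 13.9 CPM in the strong-reaction libraries, 6.65 to 10.8 CPM (median 8.21) in the other 7 and 6.98 to 9.72 CPM in the naive libraries, a difference of 0.89. Egr1 and Nr4a2, 2 other activity-induced factors, differed by -0.79 and -0.86 without separation.

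**Figure D5:**
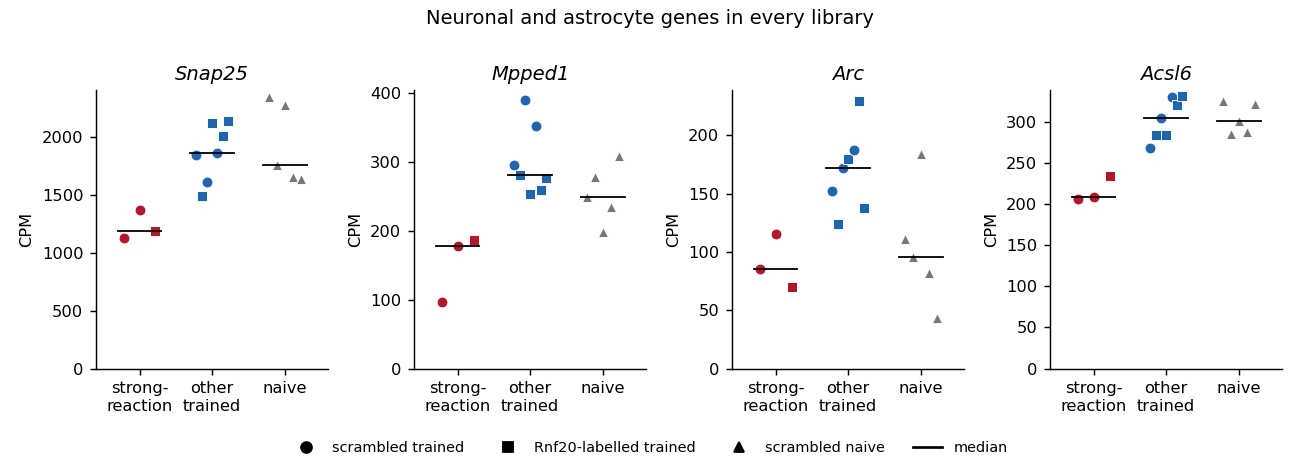
Read counts scaled to library size (CPM), from 0, of Snap25, Mpped1, Arc and Acsl6, one dot per library with a bar at each set's median. In each panel the 3 strong-reaction libraries are below the other 7 trained libraries, and for Snap25, Mpped1 and Acsl6 they are also below the 5 naive libraries, which for Arc span 43.8 to 184 CPM.

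Ribosomal protein and respiratory chain genes were separated at or under the share of all genes. Of 62 analysed cytosolic ribosome genes, 3 (Rpl10, Rpl18 and Rps9) were separated higher and 0 lower, with a median of 0.33, and of 45 oxidative phosphorylation genes 3 (Ndufs4, Ndufv1 and Sdha) were separated lower and 0 higher, with a median of -0.12. Differences lay above 0 for 61 of the ribosomal genes and below 0 for 40 of the respiratory ones, and the quartiles over all genes are -0.21 and 0.27. Ribosomal protein genes have many processed copies, so single values are uncertain. Rpl18 measured 222, 207 and 237 CPM, against 131 to 199 CPM (median 155) in the other 7, and Sdha, a subunit of succinate dehydrogenase, 205, 229 and 208 CPM, against 229 to 293 CPM (median 272) in the other 7.

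Oligodendrocyte genes had 1 of 17 separated higher, Aspa, with a median of 0.38, and genes of oligodendrocyte precursors 3 of 10 (Olig2, Sox10 and Bcas1) separated higher, with a median of 0.29, and 0.45 without scrambled 10. Over all genes, 10.7% were separated higher and 7.71% lower. Olig2, a lineage transcription factor, stood at 57.4, 58.7 and 52.7 CPM in the strong-reaction libraries, at 33.8 to 51.2 CPM (median 40.4) in the other 7 and at 39.7 to 52.2 CPM in the naive libraries, differing by 0.48. Levels of Bcas1, a marker of newly forming oligodendrocytes, were 835, 716 and 891 CPM in the strong-reaction libraries against 356 to 714 CPM (median 519.5) in the other 7, a difference of 0.70, and 464 to 795 CPM in the naive libraries. Endothelial and mural genes had 3 of 18 (Flt1, Slco1a4 and Rgs5) separated lower and 1 higher, with a median of -0.21, and -0.092 without scrambled 15. Flt1, a receptor for the growth factor VEGF, measured 33.3, 28.6 and 27.0 CPM in the strong-reaction libraries, 41.6 to 54.0 CPM (median 49.1) in the other 7 and 40.8 to 51.8 CPM in the naive libraries, a difference of -0.67. Levels of Anpep, an aminopeptidase of pericytes and also of myeloid cells, were 11.8, 18.1 and 9.04 CPM in the strong-reaction libraries against 1.42 to 8.55 CPM (median 4.47) in the other 7, a difference of 1.69, and 2.57 to 4.17 CPM in the naive libraries. Flt1 was below every naive library in the 3, and Anpep above every one.

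Markers of tissue next to CA1 differed between the sets and stand beside the reaction. Choroid plexus genes had a median difference of 2.84, with 4 of 13 analysed (Folr1, Aqp1, Slc4a5 and F5) separated higher. Their mean log2 CPM was 5.87, 4.76 and 4.66 in the strong-reaction libraries and 4.38 to 5.97 in the naive libraries, so the 3 were at the naive level. The difference came with 3 of the other 7: scrambled 5 at -0.32, scrambled 16 at 0.41 and Rnf20-labelled 20 at 1.06, against 3.51 to 4.69 in the remaining 4. Among the 12 largest differences, the coagulation factor gene F5 and the water channel gene Aqp1 are on this list. F5 measured 65.2, 22.8 and 32.3 CPM, against 0.674 to 22.2 CPM (median 10.00) in the other 7 and 17.7 to 82.2 CPM in the naive libraries, and the organic anion transporter gene Slco1a2, with a difference of 2.89, also lay within its naive range of 6.73 to 30.9 CPM in the 3. Without the 3 low-choroid libraries the choroid median was 0.95, while the phagocyte median was 1.70, the reactive astrocyte median 1.52 and the mitosis median 1.47.

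Ependymal genes, of the ciliated cells that line the ventricle, had 7 of 8 analysed separated higher, with a median of 0.80. Their mean log2 CPM was 3.82, 3.58 and 3.81 in the strong-reaction libraries and 2.33 to 3.37 in the other 7. The naive libraries held 3.09 to 3.83, so the 3 were at the naive level here too. Dnah11, a motor protein of cilia, stood at 16.3, 12.1 and 19.6 CPM in the strong-reaction libraries, at 3.80 to 10.1 CPM (median 7.58) in the other 7 and at 7.74 to 13.9 CPM in the naive libraries, differing by 1.19. For Dnah11 the 3 overlapped the naive libraries. Striatal genes had a median of 1.00 with 0 of 13 separated: the mean log2 CPM was 5.59 in scrambled 10, 2.51 in scrambled 15 and 4.04 in Rnf20-labelled 18, 2.65 to 4.22 in the other 7 and 2.86 to 4.58 in the naive libraries. Without scrambled 10 the striatal median was 0.070, and without scrambled 15 it was 1.82. Thalamic genes had 1 of 6 (Rgs16) separated higher, with a median of 0.73 (0.48 without scrambled 10), and meningeal fibroblast genes 1 of 11, Mgp, with a median of 0.62 (0.97 without scrambled 15). The part of the dissected area in the neuronal and glial differences was not tested. Without scrambled 10 the phagocyte median was 1.60, the reactive astrocyte median 1.40 and the pan-neuronal median -0.51.

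Of the strong-reaction libraries, 2 belong to scrambled trained and 1 to Rnf20-labelled trained, and naive libraries were not open to the choice. The labelled comparisons were run on all libraries, and again without the 3. Since the 3 were left out for high levels of the 4 markers, a smaller marker fold change for training without them is fixed by that choice, and these values describe the remaining libraries only. For scrambled trained against naive, Spp1 had a log2 fold change of 3.22 (SE 1.04, adjusted p = 0.381, edgeR), and 1.94 (SE 0.922, adjusted p = 0.590, edgeR) without the 3. Hmox1 had 3.38 with all libraries and 1.94 without the 3, Lgals3 2.45 and 1.37, and Timp1 2.58 and 1.98. None of the 4 passed the adjusted threshold in either case. The smallest of their adjusted p-values was 0.379 for Timp1 with all libraries and 0.324 without the 3 (edgeR).

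Across all genes, edgeR called 0 of 14880 (0%) for scrambled trained against naive, with 1484 genes (9.97%) at an unadjusted p under 0.05, and 0 without the 3, with 1332 (8.90%). DESeq2 called 58 genes with all libraries, 41 higher and 17 lower in trained, and 119 without the 3, 19 higher and 100 lower. Without the 3, the scrambled trained group held only scrambled 5, 6 and 16, and scrambled 5 and 16 had few choroid plexus transcripts. The choroid plexus genes F5 and Aqp1 then had training fold changes of -3.41 and -2.40 (edgeR). The part of choroid plexus tissue in the 100 lower genes was not tested. For Rnf20-labelled against scrambled trained, edgeR called 0 (0%) with and without the 3, with 835 (5.61%) and 869 (5.81%) at an unadjusted p under 0.05, and DESeq2 called 1 gene, Pkd1 (polycystin 1, named as the single call), with all libraries and 0 without the 3. The biological coefficient of variation, the spread between libraries of a group that edgeR estimates, was 0.208 with all 15 libraries and 0.170 without the 3. Leaving out libraries chosen as extremes favours a lower spread, so this change is a description only. In Rnf20-labelled against scrambled trained, the marker fold changes were -0.66 for Spp1, -0.996 for Hmox1, -0.92 for Lgals3 and -1.18 for Timp1, and none of them passed the adjusted threshold (0.832 to 0.916, edgeR). Single libraries moved them: the fold change ranged over -2.02 to -0.23 for Spp1, -2.11 to -0.46 for Hmox1 and -1.88 to -0.57 for Lgals3, lowest without Rnf20-labelled 18 and highest without scrambled 15, and over -1.89 to -0.92 for Timp1, lowest without Rnf20-labelled 18 and highest without Rnf20-labelled 14. Without the 3 they were -0.73, -0.66, -0.79 and -1.26 in the same order.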

How the data were processed

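RNA from frozen dorsal CA1 was made into stranded poly(A) libraries with 14 PCR cycles, per the labels' protocols. Trim Galore, FastQC, featureCounts 2.0.1, DESeq2 and the assembly Rnor_6.0 are named in the submitters' processing notes, with the aligner, annotation release and strand setting of counting not given in the sources used here, overlapping and antisense genes cannot be told apart. The deposited table holds raw read counts per gene, with 12537250 to 20644425 per library; the deposited normalised table was not used, and 0 value columns were left unmatched.

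From the counts, 14880 of 22314 genes passed edgeR's filterByExpr on the 3 labelled groups (99.9% of counts kept; 399 genes had no count). Levels are CPM after TMM scaling, and log2 CPM uses a prior count of 2. The 3 libraries were compared with the other 7 trained ones by separation and difference of means. Labelled groups were tested in all 15 libraries with edgeR 4.0.16's quasi-likelihood F test (limma 3.58.1, R 4.3.3) and Benjamini-Hochberg adjustment at 0.05, with DESeq2 1.42.0 as alternative. The procedures were tested on simulated data. Since no label states separate animals, p-values reflect only the spread among libraries, which may be technical, and the precision of low counts is limited by counting error.

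The members and the 46 gene lists were chosen with earlier results of these data known. Named genes are Rnf20, the 4 markers, the 12 separated genes of largest difference each way (mean CPM of at least 5, same direction within both labels), and up to 3 separated members of each list (mean CPM of at least 1) or, where none is, the one of largest difference; others are named after their values were seen. Alternatives tried were another scaling, filter and prior count, leaving out single libraries, each label alone, and sets without the low-choroid, borderline or lowest libraries. Promoter sequences came from RefSeq (GRCr8), matched by symbol. Some genes that the rule names are not reported here.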

Additional observations from a re-analysis of the deposited data

Results flagged for a closer look

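In 81 checks of a gene within a labelled group of 5 libraries, 5 had 1 library at a distance from the rest larger than Dixon's critical value; chance gives about 1 in 20, a rate that does not apply to genes chosen for their level in the same libraries. Of these, 3 were Rnf20-labelled 18, the one strong-reaction library of its group, and these genes were named because they are lower in the strong-reaction libraries, so its distance restates that choice: Mpped1 was 187 CPM there and 253 to 281 in the other 4, Ccn3 was 66.9 against 126 to 140.2, and Lyzl4 was 10.8 against 16.8 to 19.1. Slco1a2 was 0.637 CPM in Rnf20-labelled 20, one of the 3 libraries with few choroid plexus transcripts, against 6.17 to 9.71 in the rest of its group. Lilrb4 was 0.428 CPM in naive 12, against 1.92 to 2.85 in the other 4 naive libraries.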

How the results depend on the processing

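Another scaling, filter or prior count moved none of the gene counts or list medians. Leaving out 1 library gave 1611 to 2676 genes separated higher and 1170 to 1882 lower, 465 to 783 higher by at least 1 and 14 to 57 lower by at least 1; fewer libraries make separation easier. List medians that moved by more than the spread of the other 7 ranged over -0.10 to 0.10 for heat shock, -0.42 to -0.24 for immediate early, -0.60 to -0.35 for interneuron, -0.12 to 0.045 for glucocorticoid-responsive, -1.12 to -0.65 for CA1, 0.070 to 1.82 for striatal, 0.088 to 0.21 for unfolded protein stress, 0.45 to 0.97 for meningeal fibroblast. Others that moved by over 1.5 times ranged over 0.64 to 1.44 for interferon-stimulated, -0.17 to -0.00090 for cholesterol synthesis, 0.15 to 0.29 for axon injury response, -0.27 to -0.092 for endothelial and mural, 0.27 to 0.45 for oligodendrocyte precursor, -0.37 to -0.18 for CA2, -0.15 to 0.035 for CA3, -0.49 to -0.15 for dentate granule, -0.37 to -0.16 for neocortical, 0.48 to 0.99 for thalamic. Within scrambled trained libraries alone, 3182 genes were separated higher, 2392 lower and 66 lower by at least 1, and medians were 0.071 for heat shock, 0.48 for oligodendrocyte precursors, -0.043 for CA2 and -0.32 for interneurons. Within Rnf20-labelled libraries, rescaled alone, the counts were 4905, 4135, 1021 higher by at least 1 and 121 lower by at least 1, and medians 0.10 (interferon), 0.021 (unfolded protein), -0.14 (heat shock), 0.58 (ribosome), 0.95 (meninges) and -0.48 (CA1). Without the 3 low-choroid libraries, 2514 genes were separated higher, 2254 lower and 27 lower by at least 1. Sets chosen after seeing the data gave 2625, 2180, 851 and 26 and an immediate early median of -0.50 without scrambled 16 and Rnf20-labelled 8, and 29 lower by at least 1 and an unfolded protein median of 0.092 without Rnf20-labelled 4 and 14. DESeq2 called 1 gene for the Rnf20 label and 58 for training, where edgeR called 0. Of the other alternatives, 852 list medians and 54 gene counts stayed close, and 12 single-gene differences moved, those of Mpped1, Lyzl4, AABR07049886.2, Pou3f1 and Rspo3, without scrambled 10 or within one label. Leaving out 1 library, Mpped1 ranged over -1.17 to -0.68, Lyzl4 over -1.20 to -0.65 and AABR07049886.2 over -1.25 to -0.54. Without the 3 strong-reaction libraries the Rnf20-label fold change had the opposite sign for some genes, though not past the threshold either way. Among them were Glycam1 (-1.25 with all, 1.69 without), F5 (-0.33 with all, 1.51 without), Aqp1 (-0.92 with all, 1.02 without), Slco1a2 (-0.38 with all, 1.29 without) and Lilrb4 (-0.64 with all, 0.33 without). The training fold change also turned for some, again not past the threshold, among them Glycam1 (1.70 with all, -4.15 without) and Cadps2 (-0.26 with all, 0.14 without). Rnf20's own label fold change ranged over -0.090 to 0.0017 when 1 library was left out. The causes of these moves were not tested. No paired analysis was possible because the replicate numbers differ between the groups.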
